A study of Rattus norvegicus with 4 samples.

Results

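The genes described here are 10 genes of the extracellular matrix that fibroblasts secrete, namely the small leucine-rich proteoglycans Dcn, Bgn, Aspn, Lum, Fmod, Omd, Prelp and Ogn together with Fbln1 and Postn. They were found by their symbols among 14008 genes with an NCBI Gene ID, and all 10 were listed in every library. The group was chosen by the ratio of BPA to control in these same libraries, which was known when the genes were picked. The BPA to control values of the 10 genes are therefore a description, no test of them is given, and nothing is supported by them. Where counting intervals of their ratios are given, these describe counting error only and are not read as tests.

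Wistar dams received bisphenol A (BPA), a monomer of polycarbonate plastics, at 5000 µg per kg of body weight daily by mouth from gestational day 1 until birth, or vehicle alone (the labels name the strain Wistar and the methods Wistar Furth). Cortical mRNA of their offspring, labelled as postnatal day 1, was sequenced, and expression was given as FPKM, the number of fragments scaled by transcript length and by depth. There were 4 libraries: males and females whose dams received vehicle (control male, control female), and males and females whose dams received BPA (BPA male, BPA female). The labels name the tissue as frontal cortex and the methods of the study as prefrontal cortex, with the meninges removed during dissection under a microscope.

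Each combination of sex and treatment was thus 1 library, and while several pups per sex and treatment, from independent litters, went into the profiling, no source used here states whether a library pooled pups or which litters it held. A difference between a BPA and a control library of the same sex has no replicate check, and treatment cannot be told apart from dissection, litter or library within a sex. The depth recovered from the spacing of low FPKM values was 9247500 fragments in the control and 9195000 in the BPA library of males, and 8945000 and 9015000 in those of females, so that depth differed little. The tissue label was checked against 10 cortical neuron genes, of which 9 were listed. Neurod6, a transcription factor of cortical projection neurons, had FPKM of 233 in the control and 255 in the BPA library of males, and 216 and 231 in those of females. The cortical neuron list was therefore abundant in every library.

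Small leucine-rich proteoglycans are secreted proteins built of leucine-rich repeats, and many carry chondroitin, dermatan or keratan sulfate chains. They bind collagen, govern how fibrils assemble and hold growth factors such as transforming growth factor beta. In the brain these genes are known mainly from fibroblasts of the meninges and of the larger vessels, whereas the matrix around neurons is made of lecticans, tenascins and hyaluronan.

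In males 6 of the 10 genes were at least 2-fold lower with BPA (log2 ratio of -1 or lower), where 2.53% of all 16782 transcripts listed in males were. In females it was 8 of 10, where 3.51% of 16819 transcripts were. The same 6 genes passed in both sexes, beside 0.742% of 16182 transcripts listed in all 4 libraries. Because the genes were selected on this contrast, nothing is read from these shares. Log2 ratios were computed on FPKM plus 0.5, which understates the difference of scarce genes. The median log2 ratio of the 10 genes was -1.01 in males and -1.51 in females, while over the 13163 transcripts whose mean FPKM reached 1 it was -0.04 in each sex. All 10 genes had both BPA libraries below both control libraries, as had 30.9% of the 16182 transcripts listed in all 4. In bulk RNA, fewer cells of a type and less RNA per cell cannot be told apart.

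**Figure D1:**
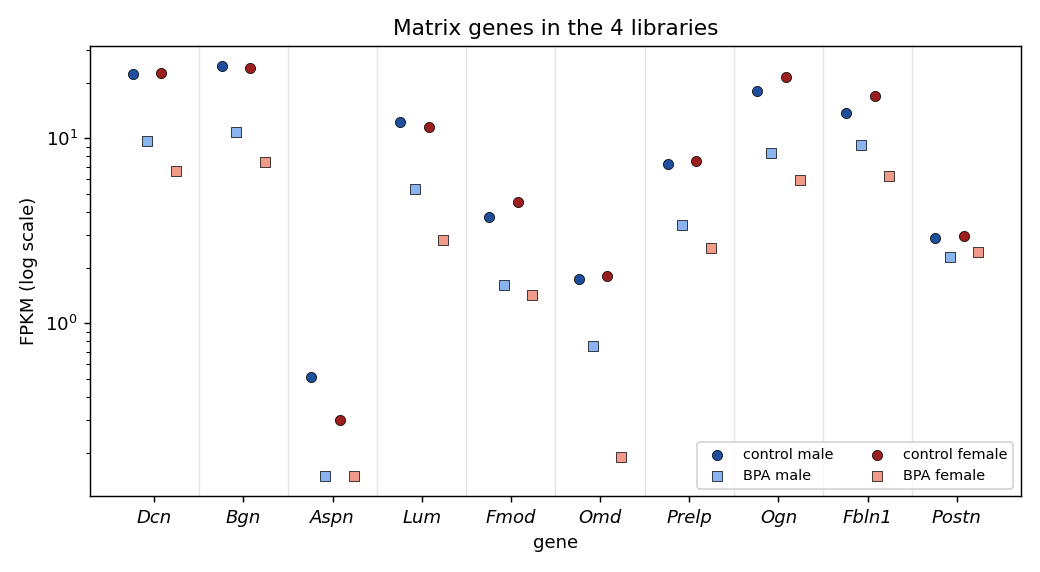
FPKM (log axis) of each of the 10 genes in the control and BPA libraries of each sex, with 1 point per library and no error bar because each is a single library. The squares of the BPA libraries lie below the circles of both control libraries for all 10 genes, with the smallest gap for Postn, 2.91 against 2.27 in males and 2.98 against 2.43 in females.

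Class I of the family holds decorin, biglycan and asporin. Dcn encodes decorin, which binds type I collagen and transforming growth factor beta. Its FPKM was 22.3 in the control and 9.66 in the BPA library of males, and 22.6 and 6.62 in those of females. The control libraries differed little, and the BPA libraries held 43.3% and 29.3% of the control level in males and females. With 0.5 added to each FPKM, the log2 ratios were -1.17 and -1.70. Estimated fragments behind the values were 326, 140, 319 and 94 in the same order, and the exact 95% interval of the ratio was -1.51 to -0.92 in males and -2.12 to -1.44 in females. Such intervals, given here without the added 0.5, cover counting error only.

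Bgn encodes biglycan, the closest relative of decorin, which also acts on Toll-like receptors once released from the matrix. It was the most abundant of the 10 genes in every library, with FPKM of 24.5 in the control and 10.9 in the BPA library of males, and 24.0 and 7.42 in those of females. The log2 ratio was -1.14 in males (interval -1.40 to -0.95) and -1.63 in females (interval -1.96 to -1.43). Bgn and Dcn held the first and second rank of the 10 genes in all 4 libraries.

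Aspn encodes asporin, which has an aspartate-rich stretch and binds collagen as decorin does. It was the rarest member, with FPKM of 0.51 in the control and 0.15 in the BPA library of males, and 0.30 and 0.15 in those of females. These rested on 7, 2, 4 and 2 estimated fragments. The intervals of the ratio, -5.10 to 0.59 in males and -4.48 to 1.79 in females, were wide and held 0. They cover counting error only and are no test of a gene selected on this contrast. Aspn was the only member with a mean FPKM under 1, and 9 of 10 passed that filter.

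Class II holds lumican, fibromodulin, osteomodulin and prolargin, which bind fibrillar collagen, and several of which carry keratan sulfate or tyrosine sulfate. Lum, the gene of lumican, had FPKM of 12.3 in the control and 5.35 in the BPA library of males, and 11.5 and 2.81 in those of females. Its BPA female library held 24.4% of the control level, and its log2 ratios were -1.13 in males (interval -1.56 to -0.86) and -1.86 in females (interval -2.52 to -1.59).

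Fmod encodes fibromodulin, which guides collagen cross-linking. Its FPKM was 3.77 in the control and 1.62 in the BPA library of males, and 4.55 and 1.42 in those of females. Both BPA libraries thus lay well under both control libraries, at log2 ratios of -1.01 and -1.40. Prelp encodes prolargin, which links the matrix to basement membrane through heparan sulfate. Its FPKM was 7.26 in the control and 3.38 in the BPA library of males, and 7.50 and 2.57 in those of females. Its male log2 ratio was -1.0, which lies at the 2-fold threshold itself, and its female ratio was -1.38. Fmod at -1.01 in males was the next inside the threshold and Omd at -0.84 the nearest outside it.

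Omd encodes osteomodulin, also called osteoadherin, best known from mineralized tissue. It stood at FPKM of 1.74 in the control and 0.75 in the BPA library of males, and 1.80 and 0.19 in those of females, from 28, 12, 28 and 3 estimated fragments. The BPA female value was the lowest relative level of any member, 10.6% of the control, but with so few fragments its interval ran from -5.60 to -1.54. On FPKM plus 0.5 the log2 ratios were -0.84 in males and -1.74 in females.

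Ogn, of class III, encodes osteoglycin or mimecan. It had FPKM of 17.9 in the control and 8.37 in the BPA library of males, and 21.5 and 5.93 in those of females. Here the log2 ratio was -1.05 in males (interval -1.35 to -0.85) and -1.77 in females (interval -2.14 to -1.58). The intervals of the sexes did not overlap, but they cover counting error only and no spread between animals.

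Fbln1 and Postn are not leucine-rich proteins. Fbln1 encodes fibulin 1, a calcium-binding glycoprotein of basement membranes and elastic fibers. It had FPKM of 13.8 in the control and 9.16 in the BPA library of males, and 17.0 and 6.24 in those of females. The male log2 ratio of -0.56 lay outside the 2-fold threshold and the female ratio of -1.38 inside it. Postn encodes periostin, a matricellular protein that binds integrins and promotes collagen cross-linking. Its FPKM was 2.91 in the control and 2.27 in the BPA library of males, and 2.98 and 2.43 in those of females. Its log2 ratios of -0.30 and -0.25 were small beside those of the other abundant members, and the counting intervals held 0 in both sexes, -0.85 to 0.12 in males and -0.78 to 0.18 in females.

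**Figure D2:**
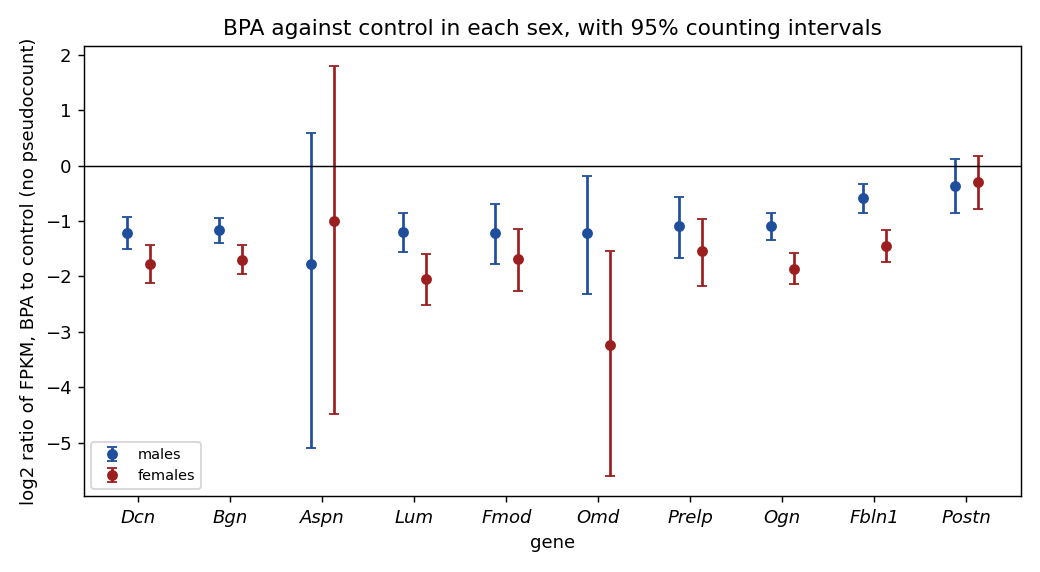
Log2 ratio of FPKM, BPA to control, without an added 0.5, for each of the 10 genes in males and in females; points are ratios of 1 library to 1 and bars are exact 95% counting intervals. The intervals lie below 0 in both sexes for 8 of 10 genes, and those of Aspn and Postn hold 0. They cover counting error only and are no test, since the genes were selected on this contrast. No share over all transcripts is given for this count, and nothing is read from it.

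Among themselves the members differed more in level than in ratio. The order of FPKM in both control libraries was Bgn, Dcn, Ogn, Fbln1, Lum, Prelp, Fmod, Postn, Omd and Aspn. Both BPA libraries had the order Bgn, Dcn, Fbln1, Ogn, Lum, Prelp, Postn, Fmod, Omd and Aspn, so that Fbln1 and Postn each stood 1 place higher. Neighbors in the order lay close together in places, as with Bgn and Dcn in control female at 24.0 and 22.6, and a single library gives no spread against which to set that gap. Set against all genes with an NCBI Gene ID, Dcn stood at percentile 73.3 in the control and 54.2 in the BPA library of males, and 73.7 and 46.8 in those of females.

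The libraries of the same treatment were then compared between the sexes. On FPKM plus 0.5, none of the 10 genes differed by 2-fold or more between control female and control male, where 3.11% of 16182 transcripts did, and none between BPA female and BPA male, where 3.14% did. The added 0.5 matters here for Omd, which had 0.75 FPKM in BPA male and 0.19 in BPA female, from 12 and 3 estimated fragments. The median log2 ratio of female to male was 0.03 in control and -0.49 in BPA libraries, beside 0.00 and -0.01 over the same 13163 transcripts. The BPA to control ratio was lower in females than in males for 8 of 10 genes, with Aspn and Postn as the exceptions. For 4 of 10 genes the counting intervals of the sexes did not overlap. No share over all transcripts is given for either count, so nothing is read from them. The median of the female minus the male log2 ratio was -0.51 for the 10 genes, beside -0.01 over the 13163 transcripts. The log2 ratio of female to male ran from -0.34 for Aspn to 0.29 for Fbln1 in the control libraries, and from -0.86 for Omd to 0.08 for Postn in the BPA libraries. The gap between the sexes was not tested, because each sex has 1 library per treatment.

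Of 9 other small leucine-rich proteoglycan genes, 5 were listed, and Kera, Ecm2, Podn and Podnl1 were not listed under an NCBI Gene ID. An assembled transcript annotated as podocan had FPKM of 2.03 in the control and 1.15 in the BPA library of males, and 1.43 and 1.53 in those of females. The most abundant was Tsku, the gene of tsukushi, a Wnt and BMP antagonist, which had FPKM of 6.49 in the control and 7.39 in the BPA library of males, and 5.17 and 5.10 in those of females. Tsku lay above Fmod, Postn, Omd and Aspn in all 4 libraries and was not called by limma (log2 change 0.08, SE 0.204, adjusted p = 0.87). Epyc, Optc, Chad and Nyx stayed under 1 FPKM in every library in which they were listed. Optc had 0.54 in the control and 0.27 in the BPA library of males, and 0.19 and 0.28 in those of females, and Epyc, Chad and Nyx lay lower still in most libraries. Epyc had FPKM of 0.07 in both control libraries, 0.28 in BPA female and was listed at 0.01, which stands for 0, in BPA male. Chad was listed at 0.01 in both control libraries, with 0.14 in BPA male and 0.07 in BPA female, and Nyx had 0.06 in both male libraries and was not listed in females.

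Other matrix genes were tested with limma, treating the sexes as the replicates of a treatment, with 2 libraries against 2. Over all 13163 transcripts tested, 60 (0.456%) were called lower with BPA and 14 higher at an adjusted p under 0.05. With the 10632 genes that have an NCBI Gene ID tested alone, 403 (3.79%) were called lower and 74 higher. The cause of that difference was not tested. The call counts also rest on single libraries: without BPA female no gene was called (1924 at an unadjusted p under 0.05), without BPA male 6, without control female 11 and without control male 17. With no filter on low values it was 0 (2628 at an unadjusted p under 0.05). At an unadjusted p under 0.05 there were 1584 transcripts lower (12%) and 699 higher (5.3%), but with median-of-ratios scaling 1248 lower (9.5%) and 1085 higher (8.3%), so that the excess of lower over higher depended on scaling. The unadjusted counts given for lists come from the first of these fits and share that limit. Each library differs from the others in sex or treatment and so holds other animals, but the number of animals in each is not stated. The male and female libraries of a treatment may share litters, which limma did not take into account, and the p-values measure the spread between libraries that also differ in sex. The lists below were chosen with results of these data known, and their counts are set beside the shares over all transcripts.

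Fibrillar collagen chains are ligands of these proteoglycans. Of 5 genes tested, 3 were called lower with BPA, Col1a1, Col1a2 and Col3a1, and Col5a1 (adjusted p = 0.0501) and Col5a2 were not. At an unadjusted p under 0.05, 5 were lower and 0 higher. All 5 were called when only genes with an NCBI Gene ID were tested, and none with no filter on low values. Col1a2, the alpha 2 chain of type I collagen, had FPKM of 50.5 in the control and 21.7 in the BPA library of males, and 58.7 and 17.2 in those of females. In limma its log2 change was -1.47 (SE 0.129, adjusted p = 0.0255). These 5 genes had a median log2 ratio of -1.04 in males and -1.75 in females, beside -0.04 in each sex over all tested transcripts. Col5a2, with the highest ratio of the 5, had a log2 change of -0.67 (SE 0.131, adjusted p = 0.0948).

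Set against Col1a2 within each library, Dcn and Bgn stood at nearly the same level with BPA as in control. Per 100 FPKM of Col1a2 there were 44.3 of Dcn in the control and 44.5 in the BPA library of males, and 38.5 and 38.6 in those of females. Bgn gave 48.5, 50.1, 41.0 and 43.3 in the same order. For Dcn and Bgn these ratios differed by less between treatments than between the sexes. Lum gave 24.4, 24.6, 19.7 and 16.4, and Omd 3.4, 3.5, 3.1 and 1.1, so that both were lower relative to Col1a2 in BPA female than in control female, with Omd there at 3 estimated fragments. Ogn gave 35.5, 38.6, 36.6 and 34.6, higher with BPA in males and lower in females, Fmod 7.5, 7.5, 7.8 and 8.3, and Aspn, from few fragments, 1.0, 0.7, 0.5 and 0.9. Prelp gave 14.4, 15.6, 12.8 and 15. Fbln1 gave 27.3 in the control and 42.2 in the BPA library of males, and 29.0 and 36.4 in those of females, and Postn 5.8, 10.5, 5.1 and 14.2. Prelp, Fbln1 and Postn were thus higher relative to Col1a2 in both BPA libraries, by more than Dcn or Bgn. Without the added 0.5, the Col1a2 ratios were -1.22 in males and -1.77 in females. The intervals of Prelp, -1.66 to -0.57 in males and -2.18 to -0.96 in females, held these values. Such intervals cover the counting error of Prelp only, not that of Col1a2, and are not read as a test. Whether Prelp, Fbln1 or Postn differed from Col1a2 was not tested. A ratio unequal to that of Col1a2 does not show that a gene was unchanged.

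Among fibulins, elastic fiber and matricellular genes, 21 of 24 were listed and 17 tested, and none was called (10 lower and 0 higher at an unadjusted p under 0.05). With NCBI Gene ID genes alone, 6 of 17 were called lower, Fbln5, Efemp1, Eln, Emilin1, Sparc and Fn1. Efemp1, a fibulin of elastic tissue, had FPKM of 2.68 in the control and 1.10 in the BPA library of males, and 3.96 and 0.56 in those of females (log2 change -1.53, SE 0.319, adjusted p = 0.111 in limma on all transcripts). Sparc, a collagen-binding glycoprotein that glia and endothelium also make, had 184, 140, 197 and 111 in the same order (log2 change -0.61, adjusted p = 0.0856). Mfap2, a microfibril component, had 24.8, 23.3, 24.8 and 24.3. The list ranged from Efemp1, with ratios near those of Lum, to Mfap2, whose 4 libraries lay close together.

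Of 16 genes of collagen maturation, 15 were listed and 13 tested. Limma had 7 lower and 0 higher at an unadjusted p under 0.05. It called 1 lower, Pcolce, which encodes the enhancer of procollagen C-proteinase. Its FPKM was 7.20 in the control and 3.15 in the BPA library of males, and 8.35 and 3.37 in those of females (log2 change -1.14, SE 0.143, adjusted p = 0.0453 in limma). Serpinh1, the collagen chaperone Hsp47, had 36.5, 24.3, 42.7 and 18.1 in the same order (log2 change -0.90, adjusted p = 0.0742). P4ha3, a subunit of prolyl hydroxylase, had the highest ratio, with 8.79, 9.12, 9.78 and 8.20. The median log2 ratio of the 13 genes was -0.37 in males and -0.74 in females.

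The enzymes that build the glycosaminoglycan chains were also tested. Of 27 genes for chondroitin, dermatan and keratan sulfate synthesis, 23 were listed and 22 tested, and limma called none, with 1 lower and 0 higher at an unadjusted p under 0.05. Their median log2 ratio was -0.01 in males and -0.08 in females. B3gat3, which completes the linker between core protein and chain, had FPKM of 49.2 in the control and 55.7 in the BPA library of males, and 51.2 and 54.1 in those of females. B4galt1, a galactosyltransferase, was lowest with 1.60, 0.68, 2.20 and 1.29 (log2 change -0.71, SE 0.33, adjusted p = 0.326), and Chpf, a chondroitin polymerizing factor, was highest with 23.7, 30.3, 26.5 and 27.4.

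Lecticans, tenascins and their relatives in neural matrix were tested for 8 of 12 genes, and limma called none, with 0 at an unadjusted p under 0.05 in either direction. Ncan, the gene of neurocan, had FPKM of 113 in the control and 108 in the BPA library of males, and 115 and 118 in those of females. The lowest was Tnc, tenascin C, with 54.7, 43.6, 61.6 and 53.1, and the highest Cspg4, the NG2 proteoglycan, with 2.58, 3.14, 3.91 and 3.56. The median log2 ratio was -0.07 in males and -0.10 in females. A p that misses the threshold does not show that these genes did not differ.

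Of 11 heparan sulfate proteoglycan genes tested, 2 were called lower, Gpc3 and Col18a1, and none higher, with 3 lower and 2 higher at an unadjusted p under 0.05. Col18a1, the basement membrane collagen that gives rise to endostatin, had FPKM of 18.6 in the control and 8.81 in the BPA library of males, and 21.3 and 5.97 in those of females (log2 change -1.39, SE 0.182, adjusted p = 0.046 in limma). Sdc3, a syndecan of neurons, had 143, 155, 146 and 153, and Gpc5 had 8.01, 9.78, 7.60 and 10.4 (log2 change 0.35, adjusted p = 0.188). The median of the 11 genes was 0.06 in males and -0.07 in females.

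Ligands and receptors that bind decorin, biglycan or periostin were tested for 13 of 17 genes, and limma called none, with 4 lower and 1 higher at an unadjusted p under 0.05. Tgfbr3, betaglycan, a co-receptor of transforming growth factor beta, had FPKM of 4.31 in the control and 2.21 in the BPA library of males, and 4.47 and 1.91 in those of females (log2 change -0.94, SE 0.177, adjusted p = 0.0883). Tgfbr1, the type I receptor, had 17.3, 20.1, 17.0 and 22.7, and Itgb1, the beta 1 integrin chain, 42.3, 38.0, 43.6 and 35.4. Tgfbr2, the type II receptor, had 5.62, 3.51, 7.36 and 3.47 (log2 change -0.80, SE 0.168, adjusted p = 0.115 in limma). The 4 genes lower at an unadjusted p under 0.05 in limma were Tgfbr2, Tgfbr3, Kdr and Itgb1, and the 1 higher was Tgfbr1.

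Genes that mark meningeal fibroblasts were examined next. All 18 genes of that list were listed, 3 of which are the fibrillar collagens Col1a1, Col1a2 and Col3a1. With limma 9 of 18 were called lower and none higher, with 17 lower and 0 higher at an unadjusted p under 0.05. When only NCBI Gene ID genes were tested 14 of 18 were called lower, and with no filter on low values none was. Lower with BPA in both sexes were 17 of 18, where 40.1% of the 13163 transcripts tested were. The summed FPKM of the list was 549 in the control and 258 in the BPA library of males, and 721 and 185 in those of females, beside 107, 51.6, 114 and 35.8 for the sum of the 10 matrix genes. The list had a median log2 ratio of -1.06 in males and -1.77 in females. The libraries thus had the same order for both sums, with control female highest and BPA female lowest.

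Ptgds, the prostaglandin D2 synthase of arachnoid cells, was the most abundant gene of that list, with FPKM of 214 in the control and 109 in the BPA library of males, and 320 and 66.9 in those of females (log2 change -1.61, SE 0.266, adjusted p = 0.0726). Igf2, a growth factor made by leptomeninges, had 61.2, 18.7, 61.1 and 14.1 (log2 change -1.88, SE 0.129, adjusted p = 0.0253). Alpl, alkaline phosphatase, was the exception, with 3.95, 4.35, 5.46 and 4.63. No gene of the list was at 0, and none stayed under 1 FPKM in every library. The methods state that the meninges were removed. Per 100 FPKM of this list, the 10 matrix genes summed to 19.5 in the control and 20.0 in the BPA library of males, and 15.8 and 19.4 in those of females. The amount of meningeal tissue in each library is not known, and the part of these markers in the result was not tested.

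Markers of the vessel wall and of endothelium were then examined. Of 10 vessel wall genes 7 were tested and limma called none, with 3 lower and 0 higher at an unadjusted p under 0.05. Their summed FPKM was 59.5 in the control and 48.7 in the BPA library of males, and 66.8 and 48.7 in those of females, with Rgs5 of pericytes most abundant. The median log2 ratio of the 7 was -0.06 in males and -0.33 in females. Of the 7, 4 were lower with BPA in both sexes, where 40.1% of the 13163 transcripts tested were, and nothing is read from so small a list. Cnn1, Des and Myh11 stayed under 1 FPKM in every library. Acta2, smooth muscle actin, had FPKM of 5.12 in the control and 2.42 in the BPA library of males, and 4.88 and 2.39 in those of females (log2 change -0.92, SE 0.158, adjusted p = 0.0761). Kcnj8, a potassium channel of pericytes, had the highest ratio of the list, with 2.78, 3.23, 3.61 and 3.74 in the same order (log2 change 0.12, SE 0.194, adjusted p = 0.79). The list thus held genes on both sides of 0. All 10 endothelial genes were tested and none was called by limma, with 6 lower and 0 higher at an unadjusted p under 0.05. They summed to 112, 92.9, 130 and 77.7, and Cldn5, a tight junction protein of the blood-brain barrier, was the most abundant with 60.5, 55.8, 70.5 and 42.6. Their median log2 ratio was -0.41 in males and -0.75 in females. Tek, an angiopoietin receptor, was lowest with 4.88, 2.62, 5.35 and 2.70 (log2 change -0.83, SE 0.156, adjusted p = 0.0881), and Flt1, a receptor of vascular endothelial growth factor, highest with 4.61, 3.69, 5.62 and 4.61. The part of both lists in the result was not tested.

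Markers of bone and cartilage, choroid plexus, and muscle and skin had low sums. The 8 bone and cartilage genes listed summed to between 2.38 and 3.03 FPKM in the 4 libraries, with Col2a1 most abundant and 7 of 8 under 1 FPKM in every library. Choroid plexus genes summed to between 2.29 and 3.26 FPKM, with 6 of 8 under 1 throughout and Kcne2 most abundant. Muscle and skin genes summed to 8.02 in the control and 5.93 in the BPA library of males, and 5.80 and 5.88 in those of females, of which Acta1 made most, and 5 of 6 were under 1 FPKM throughout. None of the genes tested in these 3 lists, 1 in each, was called by limma, with 0 at an unadjusted p under 0.05.

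Neuronal, glial and blood markers were also summed. Cortical neuron genes summed to 684 FPKM in the control and 765 in the BPA library of males, and 678 and 737 in those of females. With limma 1 of 9 fell, Slc17a7, a vesicular glutamate transporter (log2 change -0.79, SE 0.0796, adjusted p = 0.0274), and 1 rose, Neurod2, a transcription factor of cortical excitatory neurons (log2 change 0.50, SE 0.0665, adjusted p = 0.0481). At an unadjusted p under 0.05, 1 of the 9 was lower and 4 were higher. Astrocyte and radial glia genes summed to 897, 790, 900 and 660, with Fabp7 most abundant, and limma called none of 8 (6 lower and 0 higher at an unadjusted p under 0.05). Aqp4, the water channel of astrocyte endfeet, was the lowest of them with 14.6, 9.18, 16.9 and 9.53 (log2 change -0.72, SE 0.104, adjusted p = 0.0549). Blood genes summed to 966, 906, 892 and 732, with Hbb most abundant, and none of 5 was called by limma (1 lower and 0 higher at an unadjusted p under 0.05). The lowest was Hbb-b1, a beta globin gene, with 84.6, 39.6, 65.4 and 47.5 (log2 change -0.77, SE 0.141, adjusted p = 0.084). The part of these lists in the result was not tested.

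With only NCBI Gene ID genes in the test, calls were more frequent over all genes (3.79% lower), and the counts of the lists read against that share. Called lower were then 3 of 13 collagen processing genes, 3 of 11 heparan sulfate proteoglycans, 3 of 13 ligands and receptors, 2 of 7 vessel wall genes, 3 of 10 endothelial genes, 4 of 8 astrocyte and radial glia genes and 1 of 5 blood genes. Of the 9 cortical neuron genes 1 was called lower and 2 higher. The chain synthesis and neural matrix lists again had no call.

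**Figure D3:**
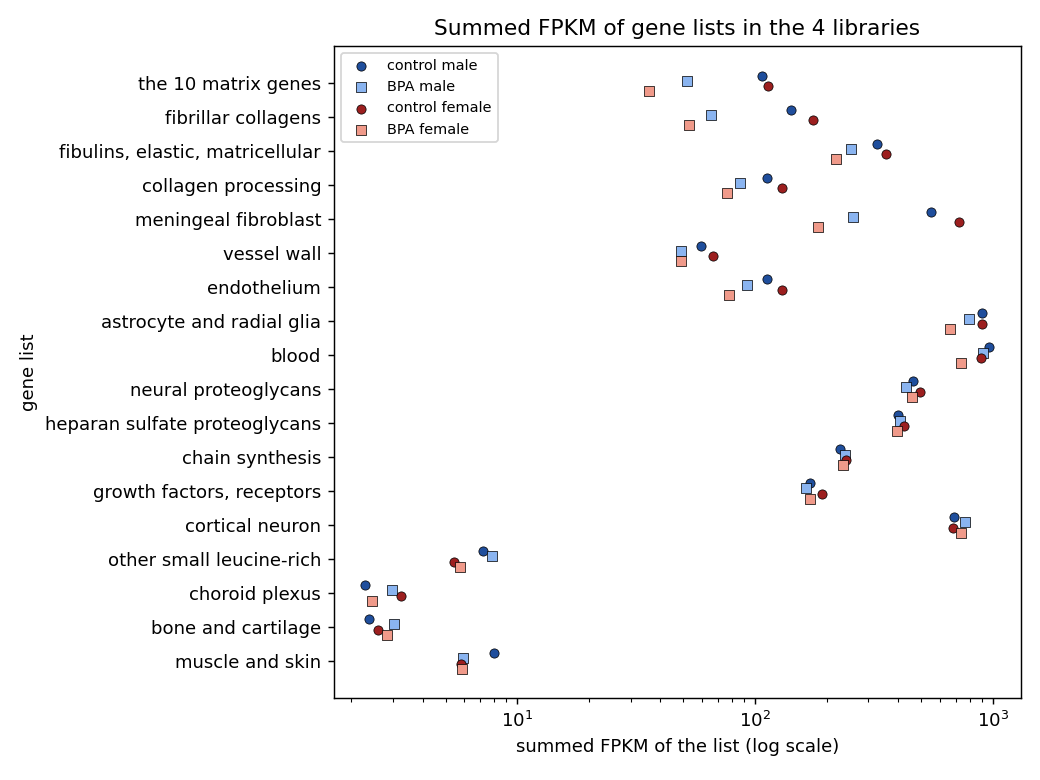
Summed FPKM (log axis) of the gene lists described here in the control and BPA libraries of each sex, with 1 point per library and no error bars. The 10 matrix genes (107, 51.6, 114 and 35.8), the fibrillar collagens and the meningeal fibroblast list show the widest gaps between circles (control) and squares (BPA). Choroid plexus, bone and cartilage, muscle and skin and the other small leucine-rich proteoglycans lie at the left.

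The genes most alike to the members across the 4 libraries were sought among 10623 other genes with a mean FPKM of at least 1, by the Euclidean distance between each gene's centered log2 profile and the median profile of the members. The nearest were Lrrc17 (distance 0.127), Fcgrt (0.13), Gpc3 (0.156), Col18a1 (0.173) and Islr (0.175). Islr, itself a secreted leucine-rich repeat protein of mesenchymal cells, had FPKM of 17.3 in the control and 7.66 in the BPA library of males, and 19.1 and 5.56 in those of females. Lrrc17, another leucine-rich repeat gene, had 5.16, 2.60, 5.89 and 1.88. Fcgrt, the neonatal Fc receptor, had 16.9, 8.70, 18.1 and 6.72. All had the profile of the members, with similar controls and the lowest value in BPA female, and a likeness over 4 libraries says nothing of shared function.

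Several members are neighbors in the genome. In the RefSeq gene table of the GRCr8 assembly, used for gene order only, Dcn, Lum, Kera and Epyc follow each other on chromosome 7, and Ogn, Omd and Aspn do so on chromosome 17. Optc, Prelp and Fmod are adjacent on chromosome 13, and Bgn lies on chromosome X. Genes beside the clusters differed in their ratios. Btg1, next to Dcn, had FPKM of 61.2 in the control and 58.2 in the BPA library of males, and 56.2 and 51.8 in those of females, and Atp2b1, beyond Epyc, had log2 ratios of -0.03 in males and 0.00 in females. Nol8, near Ogn, had log2 ratios of 0.15 and 0.18, whereas Atp2b4 next to Optc had -0.58 and -0.53 and Btg2 next to Fmod -0.44 and -0.81. Within the clusters, Epyc and Optc had lower FPKM than Lum and Prelp in all 4 libraries.

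The bases before the starts of members are shown for the genes whose listed start is also the outermost start of the gene. RefSeq promoters of GRCr8 were given for 6 of the 10 genes, and 2 of these, Fmod and Omd, met that condition. Fmod is shown for the 250 bases before its start on the plus strand, chr13:48045317-48045566, and Omd for those before its start on the minus strand, chr17:15274871-15275120. Capitals mark matches, on either strand, to any of 5 motifs chosen after the sequences had been seen. These were the TATA box (TATAAA), the GC box (GGGCGG), the CCAAT box (CCAAT), the AP-1 motif (TGANTCA) and the TEAD motif (GGAATG), and no marked matches overlap.
Fmod: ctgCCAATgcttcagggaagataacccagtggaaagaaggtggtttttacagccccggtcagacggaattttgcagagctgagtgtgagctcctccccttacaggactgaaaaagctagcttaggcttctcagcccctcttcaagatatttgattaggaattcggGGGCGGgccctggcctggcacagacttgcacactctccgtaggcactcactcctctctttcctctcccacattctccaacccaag
Omd: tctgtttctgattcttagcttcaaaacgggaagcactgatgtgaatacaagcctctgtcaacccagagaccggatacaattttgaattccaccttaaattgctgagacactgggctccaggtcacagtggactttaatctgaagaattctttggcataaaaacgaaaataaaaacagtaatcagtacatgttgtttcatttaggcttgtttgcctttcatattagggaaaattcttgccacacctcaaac
In Fmod a CCAAT box and a GC box were found, and in Omd none of the 5. Over 33469 promoters of the same length, the TATA box was present in 12.9%, the GC box in 30.5%, the CCAAT box in 34.0%, the AP-1 motif in 6.3% and the TEAD motif in 12.1%. Of the 6 members with a promoter, 2 held the TATA box, 1 the GC box, 2 the CCAAT box, 0 the AP-1 motif and 1 the TEAD motif. No motif was common to all 6, and a match is a description of letters, not a site.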

How the data were processed

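The authors selected mRNA by oligo(dT), ran it on an Illumina sequencer, aligned the reads to the rat assembly Rnor_6.0 with Bowtie 2 and estimated expression with RSEM, as the methods of the study state. The submitters' processing notes also name HISAT and rn6, and versions are not given in the sources used here. The deposited values were FPKM, as the file headers name them, and were thus already scaled by the authors for transcript length and depth. A value of 0.01 stands for 0.

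The 10 genes and every gene list were chosen with earlier results of these data known. Genes were matched by symbol, or by gene ID through the RefSeq table of GRCr8, and each matched 1 row. Ratios were log2((BPA + 0.5)/(control + 0.5)) within a sex, and past the fold meant an absolute log2 ratio of at least 1. The tests used limma 3.58.1 in R 4.3.3 on log2(FPKM + 0.5), keeping transcripts whose mean FPKM reached 1, with treatment as the only term, a trend in the prior variance, 2 residual degrees of freedom and Benjamini-Hochberg adjustment over all transcripts. Of the 10 genes, 9 were in this fit, Aspn being under the filter, but their own p-values are not given.

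Depth was taken as the number of fragments at which FPKM times length less 60 bases lay nearest to whole numbers over scarce transcripts (between 83.3% and 86.1% within 0.1 of a whole number, against 20% without such spacing). Exact Clopper-Pearson intervals at 95% were computed from the estimated fragments. The outcome of a check of these steps on simulated data is not reported here, and nothing is read from it. Python 3.11.15, numpy 2.4.6, pandas 2.3.3, scipy 1.17.1 and matplotlib 3.10.9 were used.

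Beyond the 10 genes, the text names from each list but the microglial, of which only the gene with the highest mean ratio is named, the gene with the highest mean control FPKM and, at a mean FPKM of at least 1, those with the lowest and highest mean ratio, every other small leucine-rich proteoglycan, and the 5 genes most like the members. Others are named because a list held 6 or fewer calls, as neighbors or for opposite signs in the sexes, after their values were seen. Alternatives were a pseudocount of 0.1 or 1, no filter or a mean FPKM of at least 5, median-of-ratios scaling, sex as a block, only genes with an NCBI Gene ID, and each library left out. The summed level and calls of a microglial list are not reported here.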

Additional observations from a re-analysis of the deposited data

Results flagged for a closer look

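Some named genes lay on opposite sides of 0 in the 2 sexes, with 1 library against 1 in each, and none of these differences was tested. Among small leucine-rich proteoglycans, the female log2 ratio minus the male one was -0.19 for Tsku, 0.61 for Epyc and 0.61 for Optc, the last 2 from no more than 6 estimated fragments per library. In other matrix lists the difference was -0.29 for P4ha3, 0.10 for Ncan and -0.36 for Cspg4. In cell type lists it was -0.34 for Alpl, -0.24 for Hba-a2, -0.50 for Aldoc and -0.39 for C1qb. None of the 10 matrix genes changed sign between the sexes.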

How the results depend on the processing

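The ratios of the 10 genes were negative in both sexes under both other pseudocounts and under median-of-ratios scaling, which shifts every gene of a library alike. Using only rows with an NCBI Gene ID could not change them, since each gene has 1 such row. The number of genes at least 2-fold lower in males was 8 with a pseudocount of 0.1 and 4 with a pseudocount of 1 or with median-of-ratios scaling, against 6. Omd and Aspn entered at the lower pseudocount, with male log2 ratios of -1.11 and -1.29, and Prelp and Fmod left under the other settings. In females it was 8 throughout. The median log2 ratio lay between -1.14 and -0.89 in males and between -1.65 and -1.28 in females.

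The number of genes called by limma, 74, was 0 with no filter on low values (2628 at an unadjusted p under 0.05), 164 at a mean FPKM of at least 5 and 477 with only genes that have an NCBI Gene ID. The cause was not tested. Leaving out each library in turn gave 0 to 17 calls, and the lone library of a treatment was then assumed to vary like the pair of the other. With no filter, the calls in the meningeal, collagen, collagen processing, heparan sulfate and cortical neuron lists were 0. With sex as a block 86 genes were called, with median-of-ratios scaling 69 (at an unadjusted p under 0.05, 9.5% lower and 8.3% higher, against 12% and 5.3%), and with pseudocounts of 0.1 and 1, 65 and 97. The libraries carry no replicate number in the labels, so sex was the only pairing. Every listed alternative could be run. Depth limits Aspn and Omd most, with 7 or fewer and 28 or fewer estimated fragments per library.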

Other observations

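Some relatives of the matrix genes were listed only as assembled transcripts without an NCBI Gene ID and entered no list. A transcript annotated as fibulin-7 had FPKM of 2.51 in the control and 1.34 in the BPA library of males, and 1.97 and 1.51 in those of females. Transcripts annotated as fibulin 2 had 6.86, 6.27, 7.69 and 6.18 in the same order for the shorter and 9.66, 8.0, 10.03 and 9.85 for the longer. For perlecan, the heparan sulfate proteoglycan of basement membranes, a transcript had 4.31, 3.20, 6.89 and 3.77 and another 3.23, 2.80, 4.19 and 3.33. These 5 transcripts were lower with BPA in both sexes, while that annotated as podocan was lower in males (log2 ratio -0.62) and not in females (0.07). None of the 6 was lower by 2-fold in either sex.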
